A study of Homo sapiens with 12 samples.

Results

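The aminoacyl-tRNA synthetases are the enzymes that attach each amino acid to its transfer RNA, and 38 genes of this family were followed here after chidamide, a histone deacetylase inhibitor. The genes were taken from a fixed list of symbols, spelled as in the deposited count table, which held 26364 genes. All 38 were present, and all 38 were among the 15087 genes with enough counts to be tested. They comprised 20 genes of cytosolic enzymes, 16 genes of mitochondrial enzymes, and AIMP1 and AIMP2, which are scaffold proteins and not enzymes. AIMP2 ends in the same digit as the mitochondrial genes but was counted as a scaffold gene. GARS and KARS each encode the enzyme of both compartments and were counted as cytosolic, and FARSA and FARSB encode the subunits of a single cytosolic enzyme.

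Polyadenylated RNA had been sequenced from the human B-cell lymphoma lines JeKo-1 and Granta-519, each exposed to 4 µM chidamide or to vehicle for 12 h, with 3 libraries in each of the 4 groups. Library totals ran from 12873642 to 16592694 counts, and the 38 genes together took between 0.4694% and 0.5993% of them. Replicates were not said to come from separate cultures, and the spread behind every p-value may thus be technical. Without a described spike-in, every level is relative to the rest of its library; levels are given in CPM, counts scaled to a common library total.

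B-cell genes were abundant in all 4 groups; CD79A, for example, stood between 503.7 and 755.9 CPM. Markers of T cells, myeloid cells and erythroid cells reached at most 3.46 CPM, the value of LYZ in the treated libraries labelled JeKo-1. Of 3 epithelial and stromal markers, EPCAM and KRT18 reached at most 0.732 and 1.696 CPM, while COL1A1, a collagen gene, stood at 26.7 and 31.6 CPM in vehicle and treated libraries labelled JeKo-1 and at 59.6 and 65.6 CPM in Granta-519; its part in the results was not tested. Of the markers of mantle cell lymphoma, the disease both lines are known from, CCND1 and SOX11 stood at 2114 and 156.5 CPM in vehicle-treated Granta-519. In the vehicle libraries labelled JeKo-1, SOX11 had 0 counts and CCND1 had 5 counts over the 3 libraries. These libraries therefore went against their label for these genes, and they are called the libraries labelled JeKo-1 below.

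Cytosolic synthetases charge the transfer RNAs that serve the ribosomes of the cytoplasm, and 8 of these enzymes are held with AIMP1, AIMP2 and EEF1E1 in the multisynthetase complex. The mitochondrial enzymes are encoded in the nucleus, imported, and serve the small set of proteins made inside the organelle. Many cytosolic synthetase genes are known targets of ATF4, the transcription factor of the amino acid response, which binds the CEBP-ATF response element. MYC, which the title of the study names, binds the E-box CACGTG and is known to raise genes of protein synthesis.

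The promoters are shown first because the share that held the CEBP-ATF letters was not the same in the compartments. RefSeq promoter sequences (GRCh38.p14, 250 bases before to 50 after each annotated start) were found for 32 of the 38 genes, 16 cytosolic, 14 mitochondrial and 2 scaffold. DARS, LARS, VARS, YARS, AARS2 and VARS2 had none. The letters TGATGNAA, a form of the CEBP-ATF element, were searched on both strands. They were present in 7 of 16 cytosolic promoters (43.8%), in 1 of 14 mitochondrial promoters (7.14%) and in 4.46% of the promoters of all 27305 genes in the table. The 8 matches are given below in windows of 30 bases on the strand of the gene, with the match in capitals in either orientation. The 7 cytosolic genes were all on the list of ATF4 targets used here. RefSeq now writes the symbols of these cytosolic genes with a final 1.
AARS, chr16:70289675-70289704 (-): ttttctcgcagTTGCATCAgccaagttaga
CARS, chr11:3057407-3057436 (-): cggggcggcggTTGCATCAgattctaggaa
GARS, chr7:30594834-30594863 (+): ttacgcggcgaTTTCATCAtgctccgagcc
IARS, chr9:92293692-92293721 (-): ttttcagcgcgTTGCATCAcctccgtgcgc
MARS, chr12:57488053-57488082 (+): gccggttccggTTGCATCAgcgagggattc
NARS, chr18:57621804-57621833 (-): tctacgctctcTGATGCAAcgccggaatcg
TARS, chr5:33440956-33440985 (+): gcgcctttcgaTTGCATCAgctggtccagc
YARS2, chr12:32756076-32756105 (-): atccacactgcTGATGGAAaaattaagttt

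In 6 of the 7 cytosolic promoters the match began between 33 bases before and 15 bases after the annotated start, in AARS it began 187 bases before it, and in YARS2 it began 197 bases before it. The E-box CACGTG was present in 1 of 16 cytosolic promoters (IARS, 6.25%), in 3 of 14 mitochondrial promoters (21.4%), in AIMP2, and in 8.77% of all. The mitochondrial and scaffold matches follow, with the E-box in capitals.
CARS2, chr13:110706501-110706530 (-): tgctgggatgcaCACGTGcttcgctaacag
EARS2, chr16:23557348-23557377 (-): cagggagaagccCACGTGtgctattccatc
MARS2, chr2:197705346-197705375 (+): atgcgcctctcaCACGTGctgtcagaacgc
AIMP2, chr7:6009478-6009507 (+): ccgggcgctggcCACGTGcaggtaggagcg

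The core of ETS factor sites, CCGGAAG, was frequent in both compartments: 9 of 16 cytosolic promoters (56.2%) and 7 of 14 mitochondrial promoters (50%) held it, against 12.2% of all. HARS and HARS2, the cytosolic and mitochondrial histidyl enzymes, are transcribed away from each other from starts 85 bases apart. The 84 bases between them hold 2 ETS matches, in capitals, on the plus strand. These matches lie in the promoter windows of both genes and were counted in both compartments.
HARS and HARS2, chr5:140691371-140691454 (+): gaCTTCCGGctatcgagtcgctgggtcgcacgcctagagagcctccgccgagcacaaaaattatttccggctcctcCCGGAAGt

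These matches describe the letters of the windows; binding was not measured.

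After chidamide most of the family was lower in both lines, by modest amounts. In the libraries labelled JeKo-1, 16 of 20 cytosolic genes, 13 of 16 mitochondrial genes and both scaffold genes fell, and 2 cytosolic and 2 mitochondrial genes rose (edgeR quasi-likelihood test, adjusted p under 0.05). Over all 15087 genes, 66.4% were called, 31.1% lower and 35.3% higher. The median log2 change was -0.31 in each compartment and 0.04 over all genes. In Granta-519, 15 of 20 cytosolic genes, 11 of 16 mitochondrial genes and both scaffold genes fell, and 2 cytosolic genes and 1 mitochondrial gene rose, against 70.9% of all genes called, 31.3% lower and 39.6% higher. The median was -0.20 for the cytosolic genes, -0.32 for the mitochondrial genes and 0.08 over all genes. No member changed by as much as 2-fold in either line. Among all 15087 genes, 2987 under the JeKo-1 label and 3104 in Granta-519 were called and changed by at least 2-fold. In bulk RNA, fewer cells of a kind and less RNA per cell cannot be told apart.

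Genes in the members' range of level were themselves called lower more often than the whole table. Among the 8967 genes whose mean over the 12 libraries lay in the members' range, 10.9 to 355.1 CPM, 46% fell and 30.1% rose in the libraries labelled JeKo-1, and 45.1% fell and 31.1% rose in Granta-519; this range was chosen after the values were seen. The median log2 change of these genes was -0.11 and -0.09. Upper-quartile scaling moved the median of all genes by 0.15 on the log2 scale in the libraries labelled JeKo-1 and scaling by library size alone by 0.13, and the share of called genes that were higher went from 53.12% to 64.93% and 63.72%. The cytosolic genes called lower then numbered 12 and 13 and the mitochondrial genes 9 and 10. In Granta-519, upper-quartile scaling left 10 cytosolic genes called lower, against 15.

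**Figure D1:**
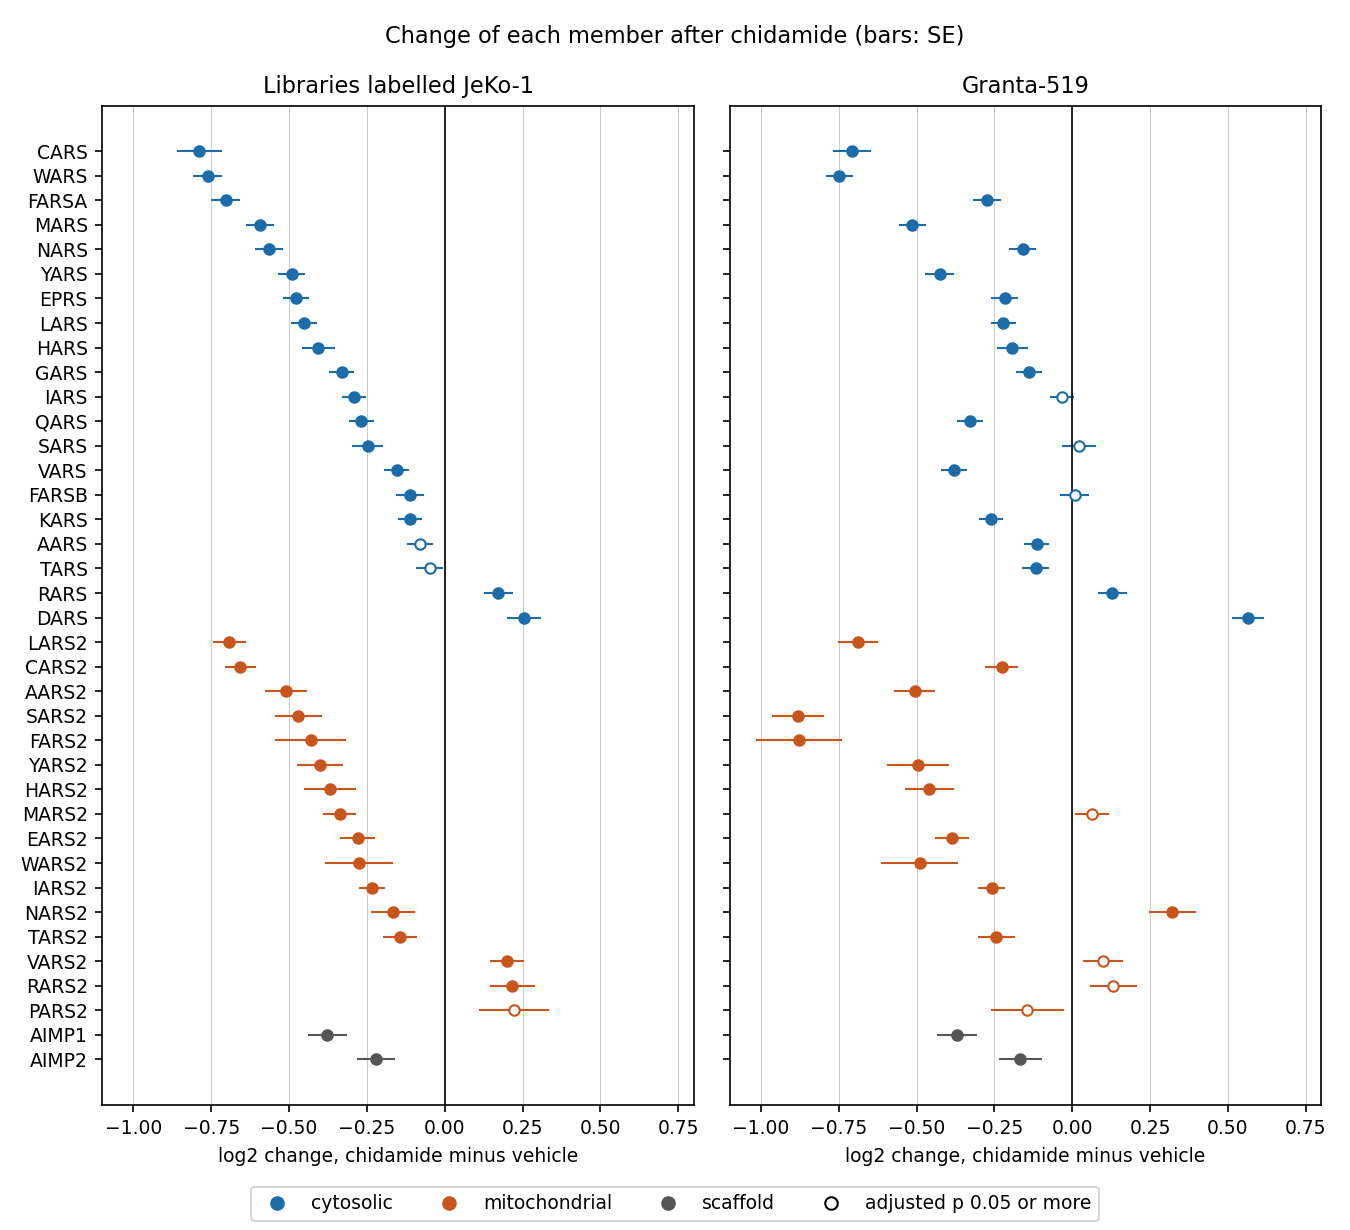
Log2 change after chidamide (x axis) for each of the 38 genes (rows) in the libraries labelled JeKo-1 (left) and in Granta-519 (right), from edgeR on 3 libraries per group, with bars of 1 SE and open symbols where the adjusted p was 0.05 or more. Most symbols lie left of 0 in both panels, between -0.79 and 0.26 on the left and between -0.88 and 0.56 on the right.

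Between treated and vehicle libraries there was little overlap. In the libraries labelled JeKo-1, all 3 treated libraries lay below all 3 vehicle libraries for 17 cytosolic and 12 mitochondrial genes, and above them for 2 and 3 genes (all genes: 31.4% below, 35.2% above). In Granta-519 the corresponding counts were 15 and 11 below, and 2 and 1 above (all genes: 32.5% and 41.3%). Both scaffold genes lay below in each line.

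Of the cytosolic enzymes, CARS and WARS had 2 of the 3 largest falls in the libraries labelled JeKo-1. CARS, the cysteinyl enzyme, measured 44.6, 42.9 and 39.4 CPM in vehicle and 25.8, 24.97 and 22.8 CPM after chidamide. Its Granta-519 levels were 86.3, 81.1 and 87.4 CPM in vehicle and 51.6, 51.3 and 53.1 CPM after chidamide. Treated and vehicle libraries were apart in each line, and every treated Granta-519 library was above every vehicle library labelled JeKo-1. CARS fell by 0.79 ± 0.07 (log2, SE, edgeR adjusted p = 3.03e-14) in the libraries labelled JeKo-1 and by 0.71 ± 0.06 (adjusted p = 4.62e-15) in Granta-519.

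WARS, the tryptophanyl enzyme and a gene known to respond to interferon-gamma, measured 178.9, 175.3 and 169.8 CPM in vehicle libraries labelled JeKo-1 and 98.8, 105.3 and 105.3 CPM after chidamide. The Granta-519 libraries held it at 296.5, 311.3 and 312.5 CPM in vehicle and 177.4, 187.6 and 183.0 CPM after chidamide. Treated libraries were below vehicle libraries in each line. WARS fell by 0.76 ± 0.05 (edgeR adjusted p = 2.44e-21) and by 0.75 ± 0.04 (adjusted p = 3.42e-22), and the difference of these changes was -0.01 ± 0.06 (adjusted p = 0.925).

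The subunits of the cytosolic phenylalanyl enzyme had changes of different size, which were not tested against each other. FARSA, the alpha subunit, measured 244.7, 262.4 and 257.1 CPM in vehicle libraries labelled JeKo-1 and 155.2, 161.6 and 152.4 CPM after chidamide. Levels in Granta-519 were 310.1, 291.4 and 276.3 CPM in vehicle and 255.4, 241.9 and 228.4 CPM after chidamide. FARSA was lower in all treated libraries of both lines, with the wider gap under the JeKo-1 label. It fell by 0.70 ± 0.05 (edgeR adjusted p = 6.95e-20) there and by 0.27 ± 0.04 (adjusted p = 2.85e-07) in Granta-519. FARSB, the beta subunit, went from 180.0 ± 3.90 to 166.5 ± 0.621 CPM (SD, n = 3) in the libraries labelled JeKo-1, a log2 change of -0.11 ± 0.04 (edgeR adjusted p = 0.024) whose sign turned under upper-quartile scaling (0.03) and library-size scaling (0.02). In Granta-519 FARSB was at 115.4 ± 3.54 and 116.0 ± 1.202 CPM, a log2 change of 0.01 ± 0.05 that did not pass.

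DARS, the aspartyl enzyme, and RARS, the arginyl enzyme, were the cytosolic genes that rose in both lines. DARS measured 77.2, 71.8 and 71.7 CPM in vehicle libraries labelled JeKo-1 and 87.3, 83.9 and 92.2 CPM after chidamide. In Granta-519 it measured 89.3, 84.8 and 90.6 CPM in vehicle and 126.9, 127.3 and 137.3 CPM after chidamide. No treated library overlapped the vehicle libraries of its line. DARS rose by 0.26 ± 0.06 (edgeR adjusted p = 5.56e-05) and by 0.56 ± 0.05 (adjusted p = 3.5e-14).

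RARS measured 104.9, 106.6 and 106.7 CPM in vehicle libraries labelled JeKo-1 and 119.7, 117.6 and 121.1 CPM after chidamide. Its Granta-519 levels were 128.0, 129.4 and 129.9 CPM in vehicle and 143.8, 138.2 and 141.5 CPM after chidamide. The groups did not overlap in either line. RARS rose by 0.17 ± 0.05 (edgeR adjusted p = 0.00126) and by 0.13 ± 0.05 (adjusted p = 0.0112). Its Granta-519 call was lost with no filter on low counts (0.02, adjusted p = 0.778) and with that line fitted alone (0.06, adjusted p = 0.233). In all genes, 24.1% rose in both lines and 22.4% fell in both, while 13 cytosolic, 11 mitochondrial and 2 scaffold genes of the family fell in both. With upper-quartile scaling these numbers were 8, 8 and 1.

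**Figure D2:**
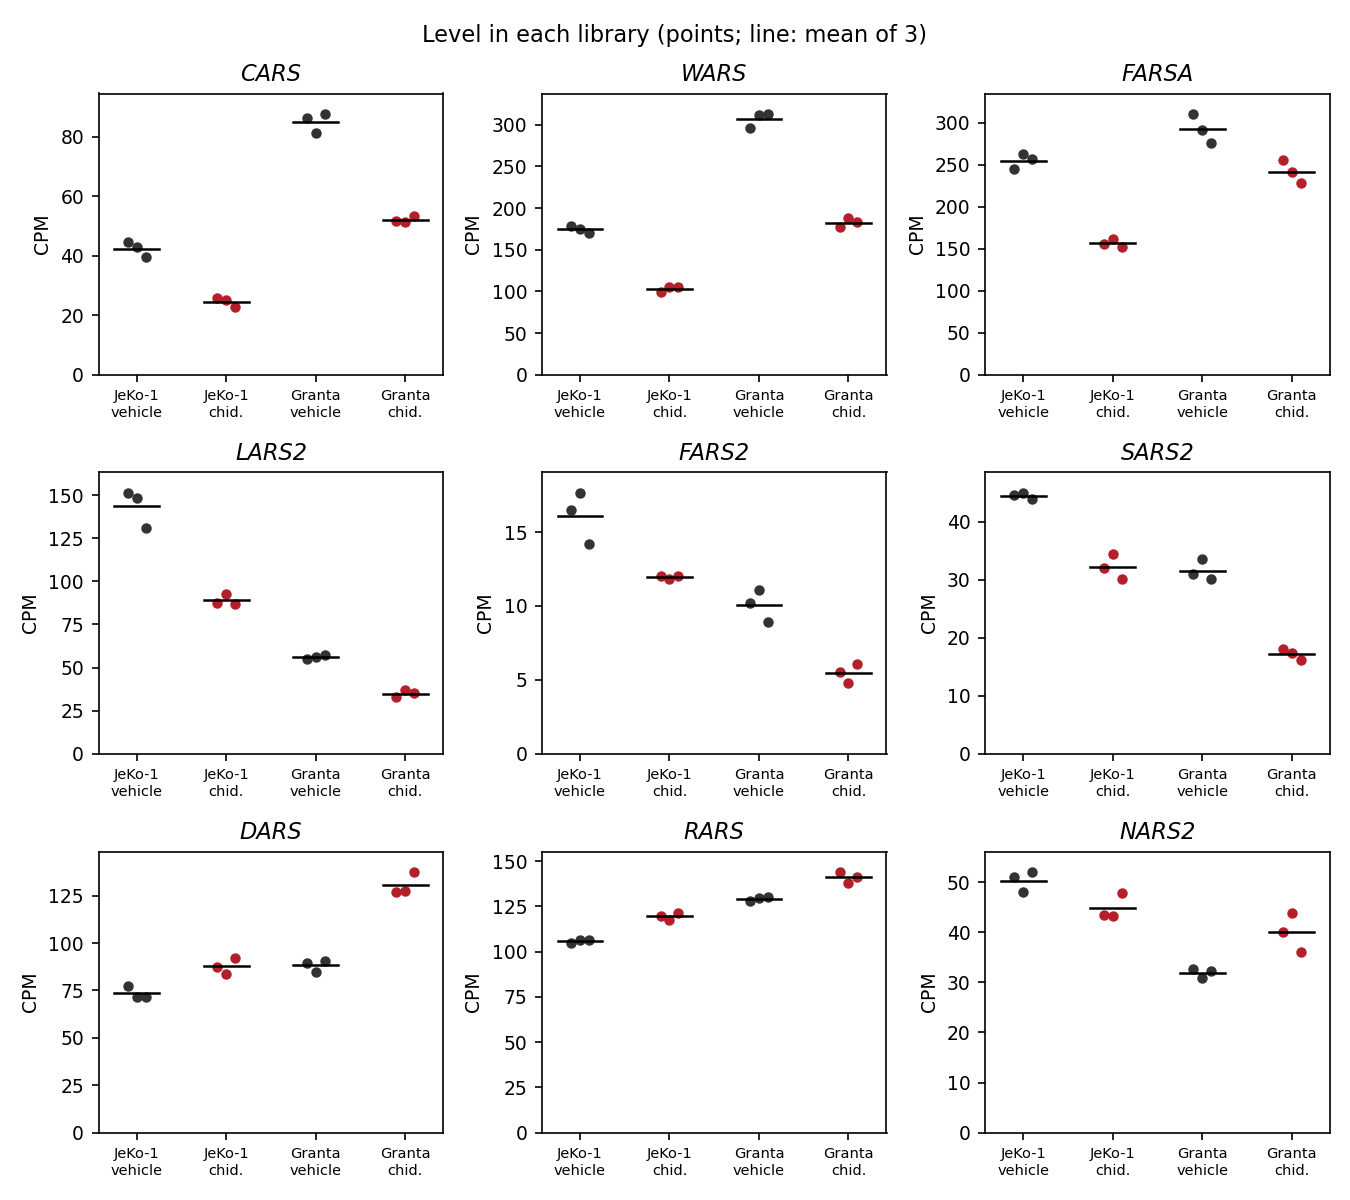
Level in CPM (y axis, from 0) of 9 family members in each of the 12 libraries, with vehicle in grey, chidamide in red and a line at the mean of 3 libraries. Treated and vehicle points are apart for every gene in both lines; CARS, WARS, FARSA, LARS2, FARS2 and SARS2 are lower after chidamide, DARS and RARS are higher, and NARS2 is lower under the JeKo-1 label and higher in Granta-519.

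DARS and RARS both belong to the multisynthetase complex. Of its 8 enzymes, 6 fell and 2 rose in the libraries labelled JeKo-1 (median log2 change -0.28), and 5 fell and 2 rose in Granta-519 (median -0.22). MARS, the methionyl enzyme of the complex, fell by 0.59 ± 0.04 (edgeR adjusted p = 1.74e-17) and 0.51 ± 0.04 (adjusted p = 1.35e-15). IARS, the isoleucyl enzyme, fell by 0.29 ± 0.04 in the libraries labelled JeKo-1 (adjusted p = 2.17e-09) and stood at -0.03 ± 0.04 in Granta-519, where it did not pass (adjusted p = 0.442), although it did with no filter on low counts (-0.14, adjusted p = 0.00236) and with that line fitted alone (-0.10, adjusted p = 0.0129). AIMP1 fell by 0.38 ± 0.06 and 0.37 ± 0.06, and AIMP2 by 0.22 ± 0.06 and 0.17 ± 0.07 (edgeR adjusted p = 0.00134 and 0.0283). The AIMP2 calls depended on the processing. Under the JeKo-1 label the call was lost in 3 of 20 alternatives, among them upper-quartile scaling (-0.07, adjusted p = 0.288). In Granta-519 it was lost in 10 of 20, among them upper-quartile scaling (-0.07, adjusted p = 0.365), DESeq2 (-0.13, adjusted p = 0.116) and leaving out any of 7 single libraries, which the closing section names. Among the 12 cytosolic genes outside the complex, 10 fell and 0 rose in each line, with medians of -0.37 and -0.18, against 31.1% and 31.3% of all genes lower. With upper-quartile scaling 7 were lower under the JeKo-1 label and 5 in Granta-519, and 1 was higher in each line.

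The 12 cytosolic genes on the ATF4 list and the 8 others are given side by side, and the difference between them was not tested. In the libraries labelled JeKo-1, 10 of the 12 listed genes fell and 0 rose (median -0.46), while 6 of the 8 others fell and 2 rose (median -0.13). In Granta-519, 10 of 12 fell and 0 rose (median -0.19), while 5 of 8 fell and 2 rose (median -0.23). Of all genes, 31.1% and 31.3% were lower in these lines, and 46% and 45.1% of those in the members' range of level. With upper-quartile scaling, 9 of the 12 and 3 of the 8 were lower under the JeKo-1 label, and 6 of the 12 and 4 of the 8 in Granta-519. Over all 15087 genes, 3530 and 3861 were then lower in these lines. The 7 genes whose promoters are printed above spread widely in the libraries labelled JeKo-1, from CARS at -0.79 through MARS at -0.59, NARS at -0.57, GARS at -0.33 and IARS at -0.29 to AARS at -0.08 and TARS at -0.05, of which AARS and TARS did not pass and TARS turned to 0.10 (adjusted p = 0.0478) under upper-quartile scaling. ATF4 itself fell by 0.26 ± 0.04 in the libraries labelled JeKo-1 (edgeR adjusted p = 4.57e-08) and rose by 0.15 ± 0.04 in Granta-519 (adjusted p = 0.00042). Changes in Granta-519 shifted by a median of -0.11 over all genes with no filter on low counts, and by -0.07 with that line fitted alone. The ATF4 rise is to be read beside these shifts.

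Of the mitochondrial enzymes, LARS2 fell in both lines, and SARS2 and FARS2 had the largest falls of the family in Granta-519. LARS2, the leucyl enzyme, measured 151.0, 148.5 and 130.9 CPM in vehicle libraries labelled JeKo-1 and 87.6, 92.4 and 86.9 CPM after chidamide. The Granta-519 libraries held it at 55.1, 56.3 and 57.0 CPM in vehicle and 32.7, 36.8 and 34.98 CPM after chidamide. Its levels were thus apart between the lines as well as between treatments. LARS2 fell by 0.69 ± 0.05 (edgeR adjusted p = 1.1e-16) and by 0.69 ± 0.06 (adjusted p = 5.96e-14).

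SARS2, the seryl enzyme, measured 44.7, 44.9 and 44.0 CPM in vehicle libraries labelled JeKo-1 and 32.0, 34.5 and 30.1 CPM after chidamide. Levels in Granta-519 were 31.0, 33.5 and 30.2 CPM in vehicle and 18.0, 17.3 and 16.1 CPM after chidamide. Treated libraries were below vehicle libraries in each line. SARS2 fell by 0.47 ± 0.07 (edgeR adjusted p = 1.9e-07) and by 0.88 ± 0.08 (adjusted p = 8.53e-14), and the difference of the changes was 0.41 ± 0.11 (adjusted p = 0.00249). Its cytosolic counterpart SARS fell by 0.25 ± 0.05 under the JeKo-1 label (adjusted p = 2.06e-05), a call lost under upper-quartile scaling (-0.10, adjusted p = 0.0716) and on the deposited score (-0.11, adjusted p = 0.0813), and stood at 0.02 ± 0.05 in Granta-519 (adjusted p = 0.738).

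FARS2, the phenylalanyl enzyme and among the least abundant members, measured 16.5, 17.6 and 14.2 CPM in vehicle libraries labelled JeKo-1 and 12.1, 11.8 and 12.0 CPM after chidamide. In Granta-519 it measured 10.2, 11.1 and 8.93 CPM in vehicle and 5.55, 4.80 and 6.10 CPM after chidamide, from 466 counts in the 3 vehicle libraries and 239 counts in the 3 treated libraries. Treated and vehicle libraries did not overlap. FARS2 fell by 0.43 ± 0.11 (edgeR adjusted p = 0.000808) and by 0.88 ± 0.14 (adjusted p = 1.39e-07). The difference of 0.45 ± 0.18 had an adjusted p of 0.0418 and was lost with DESeq2 (adjusted p = 0.0972) and without any of 9 single libraries, named in the closing section.

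CARS2, the cysteinyl enzyme, measured 162.3, 151.4 and 150.9 CPM in vehicle libraries labelled JeKo-1 and 102.9, 97.1 and 94.8 CPM after chidamide. Its Granta-519 levels were 82.04, 80.8 and 82.3 CPM in vehicle and 70.2, 69.6 and 69.8 CPM after chidamide. The gap between the groups was the wider under the JeKo-1 label. CARS2 fell by 0.66 ± 0.05 (edgeR adjusted p = 2.24e-17) and by 0.23 ± 0.05 (adjusted p = 0.000182), and the difference of -0.43 ± 0.07 passed (adjusted p = 2.41e-06).

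NARS2, the asparaginyl enzyme, was the only member called in opposite directions in the lines, as were 5.16% of all genes. It measured 50.9, 48.1 and 51.9 CPM in vehicle libraries labelled JeKo-1 and 43.5, 43.2 and 47.9 CPM after chidamide. The Granta-519 libraries held it at 32.7, 30.9 and 32.3 CPM in vehicle and 40.0, 43.8 and 36.1 CPM after chidamide. The groups were apart in each line, by under 1 CPM under the JeKo-1 label. NARS2 rose by 0.32 ± 0.07 in Granta-519 (edgeR adjusted p = 0.000136). Its fall of 0.17 ± 0.07 under the JeKo-1 label (adjusted p = 0.0349) was lost in 12 of the alternatives run, among them every other scaling. The difference of the changes was -0.49 ± 0.10 (adjusted p = 9.72e-05).

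RARS2, the arginyl enzyme, and VARS2, the valyl enzyme, rose in the libraries labelled JeKo-1. RARS2 measured 45.5, 38.9 and 44.6 CPM in vehicle and 53.8, 48.7 and 47.3 CPM after chidamide, and rose by 0.22 ± 0.07 (edgeR adjusted p = 0.00713). VARS2 measured 102.3, 116.8 and 109.0 CPM in vehicle and 120.8, 127.1 and 129.0 CPM after chidamide, and rose by 0.20 ± 0.05 (edgeR adjusted p = 0.00109). The treated libraries of both genes lay above the vehicle libraries. In Granta-519 RARS2 measured 34.9, 33.0 and 32.4 CPM in vehicle and 36.8, 33.9 and 39.3 CPM after chidamide, and VARS2 measured 44.0, 46.7 and 44.2 CPM in vehicle and 45.1, 52.0 and 47.6 CPM after chidamide. The groups overlapped there, and neither change passed (0.13 ± 0.08 and 0.10 ± 0.06, adjusted p = 0.115 and 0.157). The differences between the lines did not pass either (0.08 and 0.10, interaction test, adjusted p = 0.578 and 0.376). That of VARS2 passed under library-size scaling (adjusted p = 0.0184) and with no filter (adjusted p = 0.00932). In Granta-519 both rises passed under upper-quartile scaling (0.23 and 0.20, adjusted p = 0.00647 and 0.0058). RARS2 also passed there with DESeq2 size factors in edgeR (adjusted p = 0.042). The RARS2 call under the JeKo-1 label was lost without vehicle replicate 2 (0.16, adjusted p = 0.0515) or without chidamide replicate 1 (0.17, adjusted p = 0.0658) of that label. PARS2, the prolyl enzyme, stood at 0.22 ± 0.11 under the JeKo-1 label and did not pass (edgeR adjusted p = 0.0782). All its treated libraries lay above the vehicle libraries there. It was called higher under upper-quartile scaling (0.37, adjusted p = 0.00372) and library-size scaling (0.35, adjusted p = 0.00492). The closing section names further alternatives. In Granta-519 PARS2 stood at -0.14 ± 0.12 (adjusted p = 0.273).

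**Figure D3:**
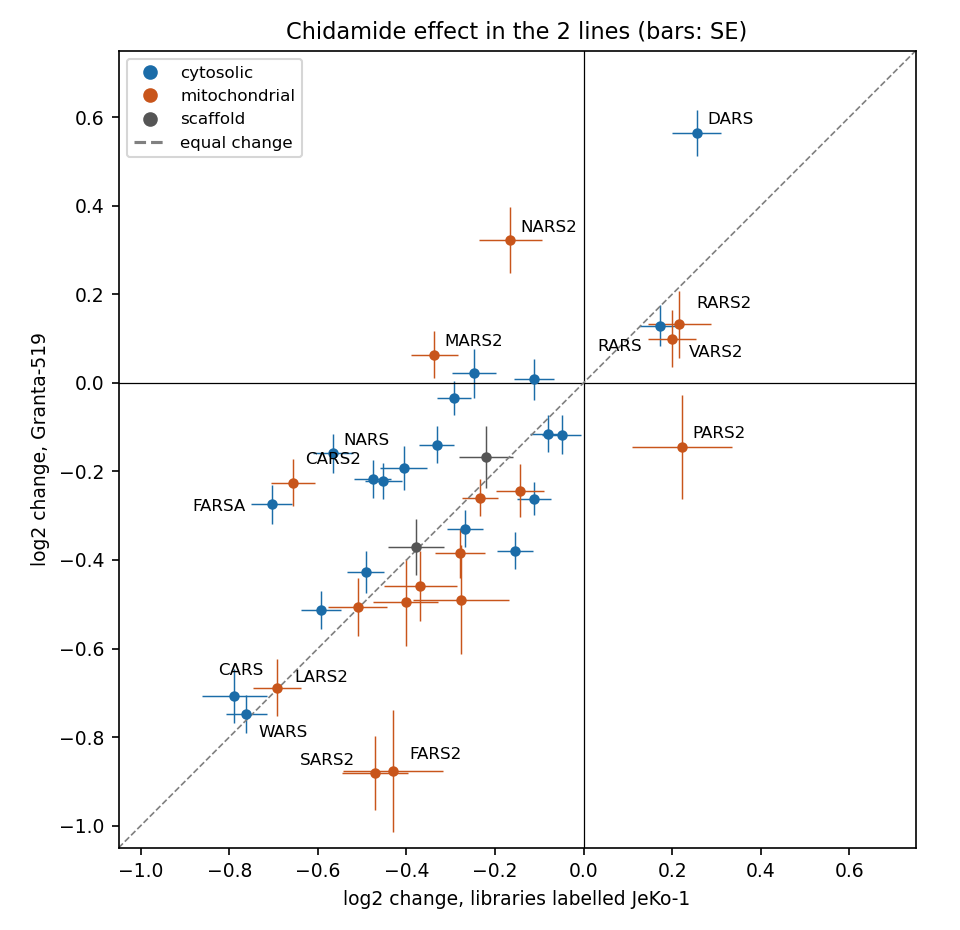
Log2 change after chidamide in the libraries labelled JeKo-1 (x axis) against that in Granta-519 (y axis) for the 38 genes, with bars of 1 SE and a dashed line of equal change. CARS, WARS and LARS2 lie near the dashed line at the lower left, FARSA, CARS2, NARS and NARS2 lie above it, SARS2 and FARS2 lie below it, and DARS is at the upper right.

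The change differed between the lines for 11 cytosolic and 5 mitochondrial genes (interaction test in edgeR, adjusted p under 0.05). The direction of the difference was taken as the libraries labelled JeKo-1 minus Granta-519. It was negative for 9 cytosolic and 3 mitochondrial genes and positive for 2 and 2, against 19.5% of all genes negative and 20% positive (39.5% called). In the members' range of level these shares were 26.5% and 23.7%. The NARS fall was the deeper under the JeKo-1 label. NARS, the cytosolic asparaginyl enzyme, measured 261.9, 234.7 and 258.2 CPM in vehicle libraries labelled JeKo-1 and 166.3, 174.1 and 169.8 CPM after chidamide. Levels in Granta-519 were 301.4, 312.8 and 327.5 CPM in vehicle and 271.5, 278.3 and 293.3 CPM after chidamide. All treated libraries were below the vehicle libraries of their line. NARS fell by 0.57 ± 0.04 (adjusted p = 1.25e-16) and by 0.16 ± 0.04 (adjusted p = 0.000962), with a difference of -0.41 ± 0.06 (adjusted p = 2.92e-07). The count of cytosolic differences depended on the scaling: with library size alone, 2 were negative and 6 positive, as the median difference of all genes moved by 0.14 and the share of positive calls over all genes went from 50.62% to 70.02%. With no filter on low counts, 2 were also negative and 6 positive, and that share was 72.93%.

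For 13 amino acids both a cytosolic and a mitochondrial gene were measured. In the libraries labelled JeKo-1, both genes fell for 9 amino acids, both rose for arginine, and for valine the calls were opposite. The RARS2 call, and with it the arginine pair, was lost without vehicle replicate 2 or chidamide replicate 1 of that label. In Granta-519, both fell for 7 amino acids, none rose together, and the calls were opposite for asparagine, where NARS fell and NARS2 rose. Both arginine genes rose there with DESeq2 size factors in edgeR (RARS2 adjusted p = 0.042) and with upper-quartile scaling (RARS2 adjusted p = 0.00647). Of all single genes, 31.1% fell and 35.3% rose under the JeKo-1 label, and 31.3% and 39.6% in Granta-519. No share was computed over pairs of genes. With upper-quartile scaling both genes were lower for 5 amino acids under the JeKo-1 label and for 4 in Granta-519. The mitochondrial gene had the more negative change in 4 of 13 pairs under the JeKo-1 label and in 7 of 13 in Granta-519. VARS, the cytosolic valyl enzyme, measured 404.8, 423.4 and 402.7 CPM in vehicle libraries labelled JeKo-1 and 368.1, 372.3 and 365.9 CPM after chidamide. In Granta-519 it measured 325.9, 323.4 and 297.6 CPM in vehicle and 245.8, 251.8 and 230.8 CPM after chidamide. Treated libraries were lower in both lines. VARS fell by 0.15 ± 0.04 (edgeR adjusted p = 0.000782) and by 0.38 ± 0.04 (adjusted p = 9.68e-12). The JeKo-1-labelled fall, and with it the opposite calls for valine, was lost under upper-quartile scaling (-0.01, adjusted p = 0.905) and library-size scaling (-0.02, adjusted p = 0.647), and the NARS fall in Granta-519 was lost under upper-quartile scaling (-0.06, adjusted p = 0.185).

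A ratio of the compartments within each library does not depend on the scaling, but it does depend on how the genes are averaged. The geometric mean of the 20 cytosolic genes was 210.9 ± 2.72 CPM in vehicle and 168.6 ± 0.54 CPM after chidamide under the JeKo-1 label (SD, n = 3), and 197.7 ± 2.37 and 171.5 ± 0.57 CPM in Granta-519. That of the 16 mitochondrial genes was 57.3 ± 1.04 and 47.6 ± 0.19 CPM under the JeKo-1 label, and 39.1 ± 0.47 and 31.4 ± 0.51 CPM in Granta-519. The cytosolic to mitochondrial ratio was 3.69, 3.63 and 3.71 in vehicle libraries labelled JeKo-1 and 3.54, 3.56 and 3.54 after chidamide. In Granta-519 it was 5.03, 5.01 and 5.12 in vehicle and 5.40, 5.41 and 5.55 after chidamide. The treated libraries lay below all vehicle libraries under the JeKo-1 label and above all of them in Granta-519 by this measure. When CPM was summed over the genes instead, a measure chosen after the data were seen, the ratio was 3.849, 3.850 and 3.855 in vehicle and 3.740, 3.797 and 3.805 after chidamide under the JeKo-1 label. In Granta-519 the summed ratio was 5.171, 5.196 and 5.130 in vehicle and 5.223, 5.165 and 5.294 after chidamide. The groups were thus apart under the JeKo-1 label by both measures, and they overlapped in Granta-519 when the genes were summed.

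**Figure D4:**
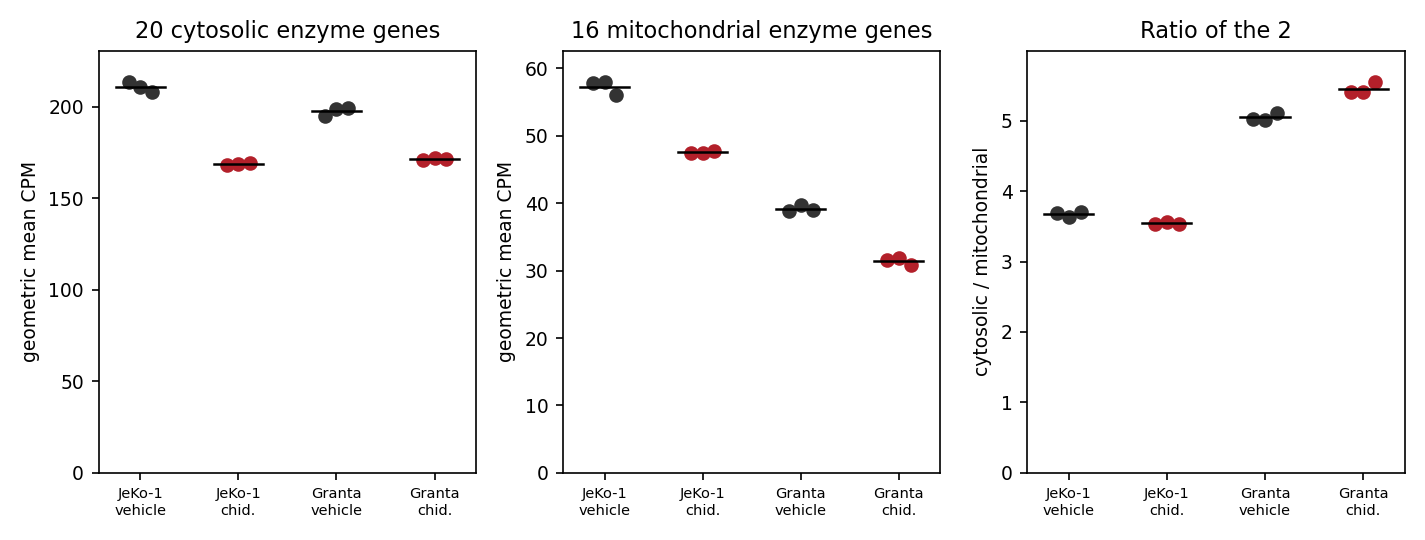
Geometric mean level in CPM of the 20 cytosolic genes (left) and the 16 mitochondrial genes (middle), and their ratio (right), in each of the 12 libraries, with a line at the mean of 3; y axes start at 0. Both levels are lower in red (chidamide) than in grey (vehicle); the ratio of the geometric means goes from 3.68 to 3.54 under the JeKo-1 label and from 5.05 to 5.45 in Granta-519.

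In vehicle, the mitochondrial genes were mostly higher under the JeKo-1 label than in Granta-519. There, 12 of 16 mitochondrial genes were higher and 2 lower than in Granta-519, while 9 of 20 cytosolic genes were higher and 11 lower, and both scaffold genes were higher (edgeR adjusted p under 0.05). The AIMP1 difference (0.21, adjusted p = 0.00228) was lost under library-size scaling (0.07, adjusted p = 0.307), with no filter on low counts (adjusted p = 0.151), on the deposited score (adjusted p = 0.429) and when vehicle replicate 1 of the JeKo-1 label was left out (adjusted p = 0.0773). That of MARS2 was lost under library-size scaling (0.09, adjusted p = 0.0987) and on the score (adjusted p = 0.111). AARS2, the mitochondrial alanyl enzyme, did not pass (-0.12 ± 0.06, edgeR adjusted p = 0.0863). It was called lower under upper-quartile scaling (-0.19, adjusted p = 0.00698) and library-size scaling (-0.25, adjusted p = 0.000303). The same held with DESeq2 size factors in edgeR, with no filter, on the score and without vehicle replicate 2 of the JeKo-1 label. Over all genes 79.8% were called, 35.5% higher and 44.3% lower, and in the members' range of level 45.5% and 39.3%. The median log2 difference was 0.50 for the mitochondrial genes, -0.19 for the cytosolic genes and -0.13 for all genes. For 6 of the 38 members the lines differed by at least 2-fold, as they did for 5901 of all 15087 genes. YARS2, the mitochondrial tyrosyl enzyme, was at 50.9 ± 3.14 CPM under the JeKo-1 label and at 16.5 ± 0.956 CPM in Granta-519, a 3.09-fold difference (log2 1.63 ± 0.08, edgeR adjusted p = 1.49e-25). Its cytosolic counterpart YARS was 2.49-fold higher in the same direction, at 288.4 ± 2.08 against 115.6 ± 2.82 CPM. LARS2, VARS2 and SARS were also higher under the JeKo-1 label, by 2.56-fold, 2.43-fold and 2.01-fold. CARS was the member with the largest difference the other way, 2.00-fold lower (log2 -1.0025 ± 0.06, edgeR adjusted p = 5.82e-21). The cell line and any other difference between these sets of libraries cannot be told apart.

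**Figure D5:**
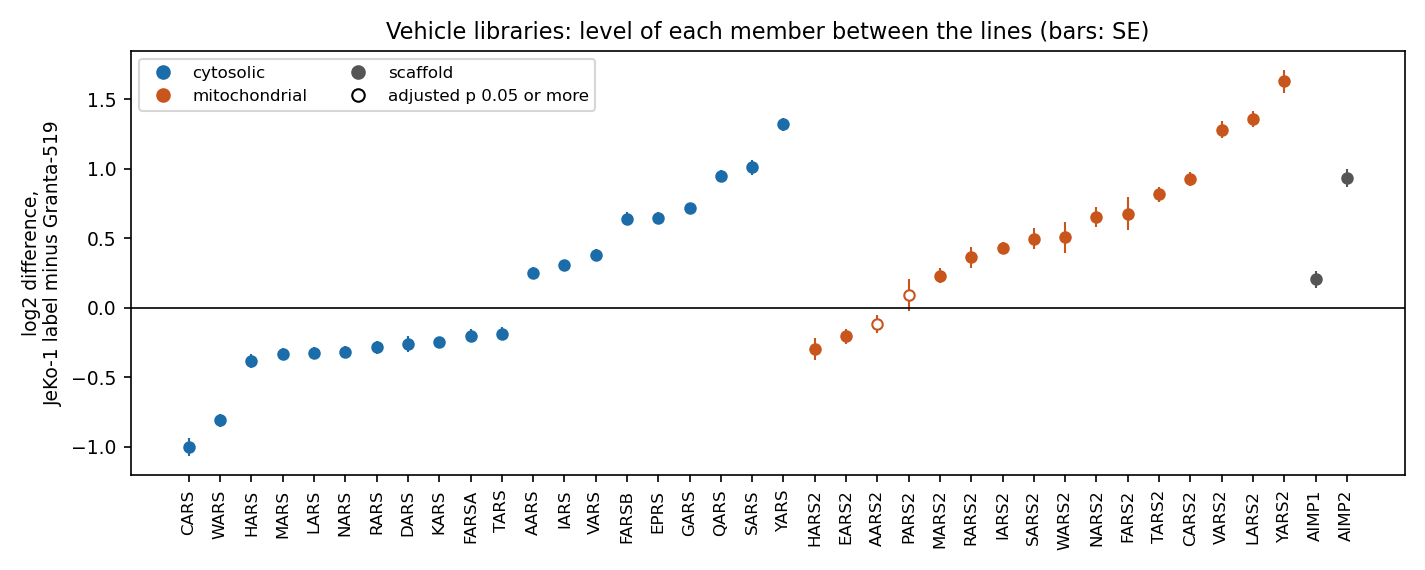
Log2 difference in level between vehicle libraries labelled JeKo-1 and vehicle Granta-519 libraries (y axis) for each gene (x axis), ordered within its class, with bars of 1 SE and open symbols where the adjusted p was 0.05 or more. The mitochondrial genes are mostly above 0, up to 1.63 for YARS2, and the cytosolic genes run from -1.0025 for CARS to 1.32 for YARS.

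To compare levels between genes, CPM was divided by the length in kilobases of the principal GENCODE v29 transcript, which is approximate because the authors' gene models were not used. In vehicle libraries labelled JeKo-1 the median was 80.9 CPM per kilobase for the cytosolic genes (range 15.8 to 163.9) and 22.6 for the mitochondrial genes (range 5.19 to 82.4). In Granta-519 the medians were 65.5 and 15.5. KARS, the lysyl enzyme of both compartments, was the highest in both lines, at 163.9 and 194.4 CPM per kilobase. PARS2, the prolyl enzyme, was the lowest under the JeKo-1 label at 5.19 ± 0.451, and WARS2, the tryptophanyl enzyme, was the lowest in Granta-519 at 4.28 ± 0.306 CPM per kilobase. Those neighbours in the order did not differ beyond their spread under the JeKo-1 label, where WARS2 stood at 6.07 ± 0.865. Cysteine was the only amino acid whose cytosolic gene was below its mitochondrial gene: the ratio of CARS to CARS2 per kilobase was 0.191 in vehicle libraries labelled JeKo-1 and 0.727 in Granta-519. Tryptophan was the other extreme in vehicle, with WARS at 9.31 and 23.2 times WARS2.

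Some members share their start region with another gene, transcribed from a start within 1000 bases on the other strand. HARS and HARS2, whose shared 84 bases are printed above, fell together: HARS by 0.41 ± 0.05 and 0.19 ± 0.05, and HARS2 by 0.37 ± 0.08 and 0.46 ± 0.08 (edgeR, libraries labelled JeKo-1 and Granta-519 in turn). The HARS call in Granta-519 was lost under upper-quartile scaling (-0.10, adjusted p = 0.0802). SARS2 lies 181 bases from MRPS12, a mitochondrial ribosomal protein gene, which fell by 0.98 ± 0.06 and 0.86 ± 0.06. FARS2 lies 57 bases from LYRM4, a gene of iron-sulfur cluster assembly, which fell by 0.47 ± 0.08 and 0.79 ± 0.10. For these pairs the directions matched in both lines, also for AIMP2 and the mismatch repair gene PMS2, which fell by 0.41 ± 0.07 and 0.44 ± 0.08, and for EARS2 and UBFD1, which fell by 0.19 ± 0.06 and 0.20 ± 0.06. Of all genes, 22.4% fell in both lines, and no share was computed over neighbouring pairs. The AIMP2 calls depended on the processing, as given above. The directions did not match for WARS and WDR25, which rose by 0.54 ± 0.18 under the JeKo-1 label (edgeR adjusted p = 0.0064) and stood at -0.18 ± 0.18 in Granta-519. AIMP1 and TBCK, whose starts are 133 bases apart in overlapping orientation, also differed under the JeKo-1 label, where TBCK rose by 0.82 ± 0.10. TERF2IP, beside KARS, stood at 0.06 ± 0.05 and fell by 0.26 ± 0.05, and ORC3, beside RARS2, stood at 0.04 ± 0.07 and 0.12 ± 0.07. The sources used here do not state a strand setting for the counting, so reads of overlapping neighbours cannot be told apart.

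The genes around the charging step moved in both directions. Their counts stand against 31.1% of all genes lower and 35.3% higher under the JeKo-1 label, and 31.3% and 39.6% in Granta-519. In the members' range of level, to which the lists were not limited, the shares were 46% and 30.1%, and 45.1% and 31.1%. The lists are short and none was tested against these shares. Of 13 genes for charging and translation in mitochondria, 8 fell and 3 rose under the JeKo-1 label (median -0.33), and 7 fell and 3 rose in Granta-519 (median -0.17). TUFM, the elongation factor that delivers charged transfer RNA in mitochondria, and TSFM, its exchange factor, fell by 0.67 ± 0.04 and 0.58 ± 0.06 under the JeKo-1 label. GATB, a subunit of the amidotransferase that makes mitochondrial glutaminyl-tRNA, fell by 0.95 ± 0.10 in Granta-519 (edgeR adjusted p = 9.77e-13), and GFM2, a ribosome recycling factor, fell by 0.58 ± 0.07. MTRF1L, a release factor, rose in both lines, by 0.39 ± 0.06 and 0.33 ± 0.06.

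Of 12 tested genes that help charging or elongation in the cytosol, 5 fell and 3 rose under the JeKo-1 label, and 6 fell and 3 rose in Granta-519 (all genes: 31.1% lower and 35.3% higher, and 31.3% and 39.6%). XPOT, the exporter of transfer RNA from the nucleus, fell by 0.80 ± 0.04 and 0.43 ± 0.04. EEF1E1, the remaining scaffold protein of the multisynthetase complex, fell by 0.61 ± 0.13 under the JeKo-1 label (edgeR adjusted p = 5.5e-05) and stood at 0.01 ± 0.15 in Granta-519 (adjusted p = 0.964). SEPSECS, which completes selenocysteinyl-tRNA, rose by 0.78 ± 0.10 under the JeKo-1 label, and EEF2, the translocation factor, rose by 0.46 ± 0.03 in Granta-519.

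Of 13 genes of the amino acid response, 7 fell and 3 rose under the JeKo-1 label, and 6 fell and 5 rose in Granta-519, to be read against the same shares of all genes. SLC7A5, a carrier of large neutral amino acids, fell by 1.15 ± 0.04 under the JeKo-1 label, from 542.4 ± 31.0 to 244.6 ± 6.14 CPM, while SLC7A11, the cystine carrier, rose by 0.86 ± 0.06. In Granta-519 SESN2, a leucine sensor, fell by 0.60 ± 0.09, and EIF2AK4, the kinase activated by uncharged transfer RNA, rose by 0.56 ± 0.08. Of 6 genes that interferon-gamma is known to induce, as it does WARS, 4 rose and 1 fell under the JeKo-1 label, and 3 rose and 1 fell in Granta-519; of all genes, 35.3% and 39.6% rose. CXCL10, a chemokine, rose by 4.49 ± 0.10 and 1.16 ± 0.08. WARS fell in both lines, as given above.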

How the data were processed

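Groups and replicate numbers came from the library titles. The authors deposited whole-number counts per gene symbol, aligned with STAR to hg19 per the submitters' processing notes; the counting tool, annotation and strand setting are not given in the sources used here. The authors also deposited scores in a table named TPM: as its deposited values show, each score is a count over a gene constant of unstated origin and over the library's total. Its columns sum to between 81790.02 and 84120.55, so they are not TPM. The score served only as an alternative, with 0.01 added before log2. A further 6 unnamed empty columns were not used.

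The main test was edgeR 4.0.16 under R 4.3.3 on the counts (filterByExpr, TMM scaling, robust quasi-likelihood fit of 4 group means over the 12 libraries, 8 residual degrees of freedom), with Benjamini-Hochberg adjustment over 15087 genes and a threshold of 0.05. A change is called lower or higher where its adjusted p was under that threshold. The SE was worked back from the log2 change and the F statistic, and is approximate. The common biological coefficient of variation was 0.0422. The treatment comparisons, their difference and the comparison of the lines in vehicle share the same vehicle libraries. Alternatives were other scalings, no filter, DESeq2 1.42.0, limma 3.58.1 on the score, each line alone, a replicate block, and each library left out.

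The members and lists were chosen with earlier results of these data known. Any member could be named. Values in every library are given for the 3 largest called rises and falls in each line, opposite calls, the 3 largest differences of the changes and opposite pairs, and for LARS2, added after its values were seen; of each pathway list the named genes are among the 2 largest called rises and falls in a line, with ATF4 and EEF1E1; a further gene that the rule names is not reported here. Replicates of a group differed by a chi-square of 1.618 to 5.394 per gene, so none was merged. The pairs of vehicle libraries labelled JeKo-1 had the highest values, 5.394, 3.029 and 4.512, and all other pairs were at 1.618 to 2.89. The TMM factors of that group were 0.9334, 0.9275 and 0.9379, and those of all other libraries ran from 1.016 to 1.029. Same-numbered vehicle and chidamide libraries did not deviate together (correlations from -0.0256 to 0.0346), so the numbers were not taken to pair them. Sequences and start positions are from RefSeq (GRCh38.p14), to which all 38 members matched by current or older symbols; no other coordinate is given because the files use hg19.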

Additional observations from a re-analysis of the deposited data

Results flagged for a closer look

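For 16 members the change after chidamide differed between the lines by an interaction test in edgeR (adjusted p from 1.68e-07 to 0.0418; 39.5% of all genes differed). Differences are log2 changes of the libraries labelled JeKo-1 minus those of Granta-519. NARS2 had the largest, -0.49, followed by FARS2 (0.45), CARS2 (-0.43), FARSA (-0.43), SARS2 (0.41), NARS (-0.41), MARS2 (-0.40) and DARS (-0.31). The others were SARS (-0.27), EPRS (-0.26), IARS (-0.26), LARS (-0.23), VARS (0.22), HARS (-0.21), GARS (-0.19) and KARS (0.15). The differences of DARS, SARS, EPRS, IARS, LARS, HARS and GARS were lost under library-size scaling, with no filter on low counts and on the deposited score. That of HARS was also lost under upper-quartile scaling (adjusted p = 0.0663). The KARS difference was lost without vehicle replicate 3 or chidamide replicate 2 of the JeKo-1 label, or chidamide replicate 1 of Granta-519. MARS2, the mitochondrial methionyl enzyme, fell from 104.3 ± 4.997 to 82.6 ± 2.07 CPM under the JeKo-1 label and stood at 88.9 ± 2.44 and 92.9 ± 4.39 CPM in Granta-519, where its change did not pass. Under upper-quartile scaling MARS2 was called higher in Granta-519 (0.16, edgeR adjusted p = 0.00625).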

How the results depend on the processing

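With upper-quartile scaling the cytosolic genes called lower in Granta-519 numbered 10, against 15. The counts of cytosolic and of mitochondrial genes called lower after chidamide stayed within 1.5 times of those reported in each line under all alternatives run. Parts of these classes did not: with upper-quartile scaling the cytosolic genes outside the complex called lower in Granta-519 numbered 5, against 10, those on the ATF4 list 6, against 10, the cytosolic genes off that list under the JeKo-1 label 3, against 6, and the cytosolic genes lower in both lines 8, against 13. The mitochondrial genes called higher in Granta-519 numbered 2 with DESeq2 size factors in edgeR and 4 with upper-quartile scaling, against 1; the cytosolic genes higher there numbered 1 with no filter on low counts and 1 with each line fitted alone, against 2. For the difference of the changes, library-size scaling, no filter and limma on the deposited score each gave 2 cytosolic genes lower and 6 higher, against 9 and 2, and mitochondrial genes higher numbered 7, 7 and 6, against 2, and 1 with DESeq2. The median cytosolic difference, -0.10, turned to 0.0357, 0.0589 and 0.0436. Reversed changes in the libraries labelled JeKo-1 were FARSB (0.0343 under upper-quartile scaling, 0.0197 under library size, 0.0220 on the score), KARS (0.0346, 0.0201 and 0.0229), TARS (0.0971 and 0.0852, under upper-quartile scaling and on the score) and TARS2 (0.00335 under upper-quartile scaling). PARS2 under the JeKo-1 label, not called in the main test, was called higher under every other scaling, with no filter and on the score. So it was without vehicle replicate 2 of that label (edgeR adjusted p = 0.0288). Its difference between the lines, also not called, passed under upper-quartile and library-size scaling, with no filter and on the score. The cause of these changes was not tested.

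Leaving out each library in turn gave 1 to 2 cytosolic and 1 to 3 mitochondrial genes higher in the difference, 1 to 2 mitochondrial genes higher in the libraries labelled JeKo-1 and 1 to 2 in Granta-519. At least 14 cytosolic and 10 mitochondrial genes stayed lower under the JeKo-1 label, against 16 and 13. In Granta-519 at least 13 cytosolic genes stayed lower, against 15. Lower in both lines were at least 12 cytosolic and 9 mitochondrial genes, against 13 and 11. Pairs with both genes lower numbered at least 7 and 5, against 9 and 7. The FARS2 difference was lost without vehicle replicate 1 or 3 or any chidamide replicate of the JeKo-1 label, and without vehicle replicate 1 or 2 or chidamide replicate 1 or 2 of Granta-519, with adjusted p from 0.0503 to 0.153. The replicate block left 1 mitochondrial gene lower in vehicle under the JeKo-1 label, against 2, and changed no other member call. The AIMP2 fall in Granta-519 was lost without any chidamide replicate of the JeKo-1 label, vehicle replicate 2 or 3, or chidamide replicate 2 or 3 of Granta-519, with adjusted p from 0.0533 to 0.164.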
